A study of Mus musculus with 6 samples.

Results

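The 9 member genes were Prg4, Slc4a10, Slc47a1, Bnc2, Foxp2, Eya1, Penk, Crym and Kcnb2, out of 23494 genes in the deposited count tables. They were chosen by their summed UMI counts, shares of cells and joint presence in cells, as genes that led cluster 4 of the Tbx18-tdT+ cells after injury. Their high level and joint presence in that cluster are therefore how they were picked and not a finding. The study followed descendants of pericytes in the adult mouse cortex by single-cell RNA sequencing. It asked which cell types these descendants form after a physical or an ischemic injury.

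Mice of the genotype Tbx18-CreERT2/Ai14-flx carried a tamoxifen-inducible Cre driven by Tbx18 and the Ai14 reporter, which gives red tdTomato in every cell that recombined and in its progeny. NG2-Cre-ERT2/Ai14-flx mice carried the same reporter with Cre driven by NG2 (Cspg4), and served as the second line. All groups, naïve included, were 3 to 4 months old, had tamoxifen, and gave cerebral cortex from which live (DAPI-) tdTomato-positive cells were sorted. The injured groups had an injection into the brain 7 days after tamoxifen, either of saline (physical injury) or of the vasoconstrictors ET-1 and L-NAME (ischemic injury), and were sampled 3 days later. The cells of several animals were pooled into 1 library per group, which makes 6 libraries. The reporter marks any cell in which the driver was active at the time of tamoxifen, not pericytes alone.

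The meninges are the membranes around the brain. Their arachnoid layer holds barrier cells, joined by tight junctions, that separate the cerebrospinal fluid from the blood-supplied dura and that carry many solute transporters. Fibroblasts of the pia and arachnoid lie beside them and make the collagen-rich matrix of these membranes.

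The members have different roles. Slc4a10 is a sodium-driven bicarbonate transporter and Slc47a1 (MATE1) exports organic cations in exchange for protons. Kcnb2 is a voltage-gated potassium channel of the Kv2 family. Bnc2 (basonuclin 2) and Foxp2 are DNA-binding transcription factors, and Eya1 is a transcriptional co-activator and phosphatase that works with homeodomain proteins. Prg4 (lubricin) is a secreted lubricating proteoglycan, Penk is the precursor of the enkephalin opioid peptides, and Crym (mu-crystallin) binds thyroid hormone in the cytosol.

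Promoter sequence was at hand in the RefSeq promoter table (assembly GRCm38.p6, 250 bases before to 50 after a start site) for 2 of the 9 members. The windows are shown because these members were found together in the same cells. Capitals mark the motif matches found, and sequences run 5′ to 3′ on the gene's strand. The upstream Slc4a10 start is at chr2:62046265-62046564 (plus strand), the second Slc4a10 start at chr2:62147628-62147927 (plus strand), and the Bnc2 window at chr4:84610148-84610447 (minus strand) lies inside the annotated Bnc2 gene.
Slc4a10, upstream start: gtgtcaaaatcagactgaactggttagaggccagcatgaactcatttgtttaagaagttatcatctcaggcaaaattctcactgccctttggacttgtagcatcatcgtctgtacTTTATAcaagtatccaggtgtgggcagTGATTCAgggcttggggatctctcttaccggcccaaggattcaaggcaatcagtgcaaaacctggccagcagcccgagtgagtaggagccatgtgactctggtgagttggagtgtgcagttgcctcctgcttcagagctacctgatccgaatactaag
Slc4a10, second start: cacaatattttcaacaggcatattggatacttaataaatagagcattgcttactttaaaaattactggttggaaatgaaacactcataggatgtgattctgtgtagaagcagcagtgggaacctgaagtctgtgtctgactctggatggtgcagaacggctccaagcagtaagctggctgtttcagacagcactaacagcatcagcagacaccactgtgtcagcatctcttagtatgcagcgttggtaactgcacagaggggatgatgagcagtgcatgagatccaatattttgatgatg
Bnc2: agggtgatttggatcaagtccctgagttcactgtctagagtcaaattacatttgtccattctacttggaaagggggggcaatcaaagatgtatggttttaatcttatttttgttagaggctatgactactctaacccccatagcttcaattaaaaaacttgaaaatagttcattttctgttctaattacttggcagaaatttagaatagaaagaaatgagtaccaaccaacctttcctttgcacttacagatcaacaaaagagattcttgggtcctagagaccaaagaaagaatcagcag

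Both strands were searched for 6 motifs, and the share of the 32851 promoter windows in the table that hold each is given with it. The TATA box was searched as TATAAA and held by 13.6% of windows. The GC box, GGGCGG, was held by 35.7%. The forkhead motif was taken as TGTTTAC, with a share of 3.65%. For TEAD factors the letters were GGAATG, found in 14.7%. The AP-1 motif TGANTCA was in 7.81% and the AP-2 motif GCCNNNGGC in 16.6% of windows. The upstream Slc4a10 window held the letters of the TATA box, on the reverse strand, and those of the AP-1 motif, which do not overlap. These are matches of letters only, and whether either acts in this promoter was not tested. The other 2 windows held none of these letters. Their GC content was 43.0% and 36.3%, against 48.3% in the upstream Slc4a10 window and a median of 52.7% over the table.

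A feature that the choice of members did not use was the length of their genes. In the GENCODE annotation of GRCm38, 5 of the 9 members spanned at least 100 kb, against 12.95% of the 20611 genes that could be matched, whose median span was 20.4 kb. Foxp2 spanned 540.6 kb (chr6:14901349-15441977), Kcnb2 436.5 kb (chr1:15287254-15723750), Bnc2 400.2 kb (chr4:84275095-84675275), Slc4a10 280.3 kb (chr2:62046462-62326730) and Eya1 141.3 kb (chr1:14168954-14310235). Slc47a1 spanned 34.95 kb (chr11:61343401-61378345), Prg4 16.75 kb (chr1:150449412-150466165), Crym 15.73 kb (chr7:120186380-120202111) and Penk 5.289 kb (chr4:4133531-4138819). The long genes were thus the 3 transcription regulators, the channel and the bicarbonate transporter.

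The Tbx18 libraries held 686 cells in the naïve group, 3845 after physical and 2047 after ischemic injury, with medians of 2806, 7376 and 9232 unique molecular identifiers (UMIs, the count of captured RNA molecules) per cell. The NG2 libraries held 4306, 2563 and 3586 cells, with medians of 4043, 6322 and 7851 UMIs. Cluster 4 of the Tbx18 line held 157, 349 and 143 cells, with medians of 1724, 6756 and 8461 UMIs, and cluster 5, named fibroblasts by the study, held 5, 116 and 10. Across the 15 pairs of libraries, 30 cell barcodes were shared, at most 5 in a pair, and 1 of them belonged to a cell rich in members. With 1 pooled library per group no test between groups was possible, and the results below are levels and shares. Levels are UMI counts summed over cells and scaled to CPM, the usual counts-per-million scale. Bracketed ranges are exact 95% intervals, Poisson for levels and ratios and Clopper-Pearson for shares. They reflect counting error only, and differences among animals are not in them.

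The study named cluster 4 vascular-genic pericytes. The naïve cells of this cluster carried markers of mural cells, with Vtn at 7549 CPM and Acta2 at 3512 CPM, each in 98.1% of cells, and the pericyte receptor Pdgfrb at 645 CPM. After injury Vtn was at 37.7 CPM in the physical and 9.98 CPM in the ischemic library and Pdgfrb at 22.7 and 12.3 CPM. The label therefore goes against Vtn and Pdgfrb in the injured cells, which are called cluster 4 here. Of the study's other markers of this cluster, Acta2 was at 1549 and 1738 CPM after physical and ischemic injury. Spp1 was at 1065 and 2281 CPM, against 302 CPM in naïve cells, and Cldn5 at 58.9 and 69.9 CPM, against 656 CPM. The study's own subclustering of this cluster gave smooth muscle cells, microglia and fibroblasts after injury. Tbx18 itself was at 75.5, 45.8 and 24.6 CPM in cluster 4 of the naïve, physical and ischemic libraries.

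In cluster 4 both transporters were found in a large share of injured cells. Slc4a10 was at 182 CPM (136 to 238) in the naïve, 1149 CPM (1109 to 1190) in the physical injury and 660.5 CPM (617 to 706) in the ischemic injury library. Slc47a1 was at 41.2 CPM (21.3 to 71.96), 416 CPM (392 to 441) and 218 CPM (193.5 to 245). The order of the libraries was the same for both carriers, physical injury above ischemic injury above naïve, and no interval of either overlapped the next. A UMI of Slc4a10 was seen in 3.82%, 43.6% and 28.7% of the cluster's cells, and one of Slc47a1 in 3.18%, 40.4% and 24.5%. As the cells differ in depth, each was also thinned to 1000 UMIs, and Slc4a10 was then seen in 3.95%, 35.3% and 16.4% of cells.

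The potassium channel gene Kcnb2 had the same order. Its level was 109.9 CPM (75.1 to 155) in naïve, 654 CPM (624 to 685) in physical injury and 289.5 CPM (261 to 320) in ischemic injury cells of cluster 4. The share of cells with a UMI was 2.55%, 33.5% and 14.7%. The naïve level rested on few cells, since 28 of the 32 naïve counts came from 1 cell.

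Among the transcription regulators, Bnc2 was at 79.0 CPM (50.05 to 118.5) in naïve, 675.5 CPM (645 to 707) in physical injury and 279 CPM (251 to 309) in ischemic injury cells of cluster 4. Foxp2 was at 151 CPM (109.7 to 203), 577 CPM (549 to 607) and 263 CPM (236 to 293). Eya1, with 1 naïve count, was at 3.43 CPM (0.0869 to 19.1), 104 CPM (92.6 to 117) and 62.2 CPM (49.4 to 77.3). All 3 were highest after physical injury. They were seen in 35.2%, 37.0% and 23.5% of cells after physical injury and in 19.6%, 21.0% and 11.2% after ischemic injury.

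The secreted products Prg4 and Penk differed from each other in how they separated the injuries. Prg4 was at 44.6 CPM (23.8 to 76.3) in naïve, 673 CPM (642.5 to 704) in physical injury and 633 CPM (590.4 to 678) in ischemic injury cells, and the intervals of the injured libraries overlapped. Penk was at 27.5 CPM (11.9 to 54.1), 372 CPM (350 to 396) and 203 CPM (179 to 229), with separate intervals. Prg4 was seen in 7.01%, 43.0% and 37.1% of cells and Penk in 2.55%, 30.7% and 24.5%. Crym was rare in all 3 libraries. It had 0 counts in naïve cluster 4, where 3 counts would be 10.3 CPM, and 8.79 CPM (5.63 to 13.1) and 6.91 CPM (3.16 to 13.1) after physical and ischemic injury, in 4.59% and 4.895% of cells. As the naïve library could not have shown the injured level, no fold change is given for it.

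**Figure D1:**
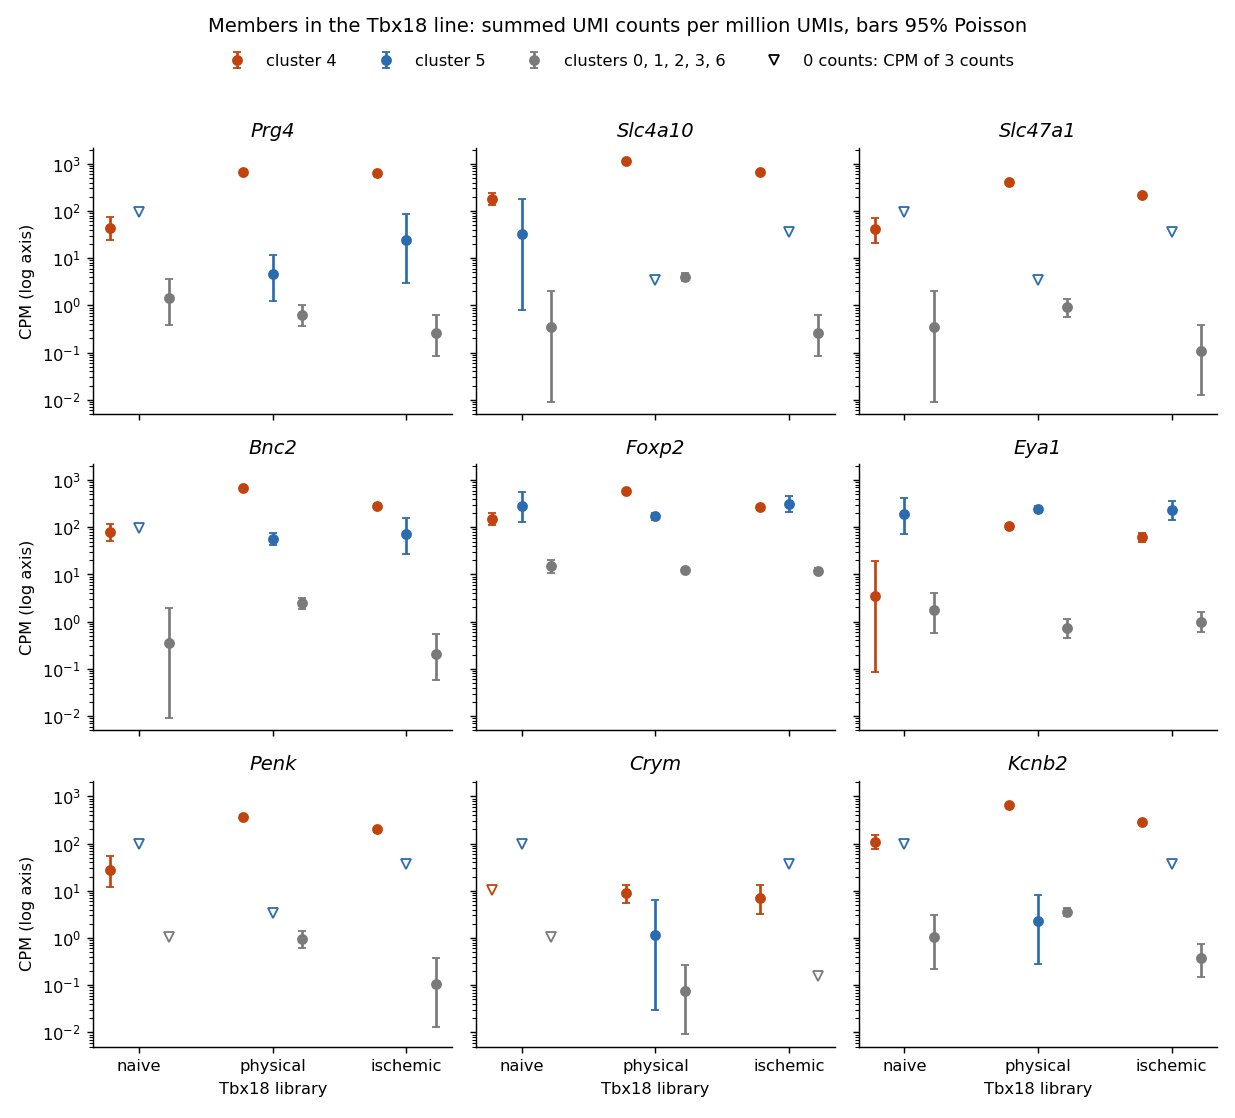
Level of each of the 9 members in the Tbx18 libraries in CPM on a log axis, for cluster 4 (orange), cluster 5 (blue) and the other clusters together (grey), with 95% Poisson intervals as bars and an open triangle at the CPM of 3 counts where no count was seen. After both injuries Prg4 (673 and 633 CPM), Slc4a10, Slc47a1, Bnc2, Penk and Kcnb2 lie higher in cluster 4 than in cluster 5, while Eya1 (242 and 232 CPM) is higher in cluster 5 and Foxp2 is higher in cluster 4 after physical injury but not after ischemic injury (263 against 318 CPM). Crym lies low throughout, and in ischemic cluster 5 its 3-count level (36.7 CPM) is above its level in cluster 4.

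Nearly all member counts of the injured Tbx18 libraries came from cluster 4 for most of the genes, which is what they were chosen for. The cluster held 98.96% of Prg4, 98.2% of Slc47a1, 97.9% of Penk, 97.3% of Slc4a10, 95.4% of Kcnb2, 94.6% of Bnc2 and 91.7% of Crym counts. Foxp2 with 72.45% and Eya1 with 57.7% were the members most spread over other clusters. The endothelial cluster 0 was used as a background. There 8 members were seen in at most 0.895% of cells after physical and 0.470% after ischemic injury, at medians of 6702 and 8981 UMIs. Foxp2 was seen there in 4.03% (3.16 to 5.04) and 4.91% (3.87 to 6.13) of cells, which is the level to set its shares elsewhere against. It had up to 11 and 10 counts in a cell, and was at 20.2 CPM in naïve cluster 0. Whether these counts are free RNA or expression in the cells was not tested. The other members' shares in injured cluster 4 lay above their own background, also for Crym.

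Compared with naïve cluster 4, 8 of the 9 members were at least 4-fold higher after physical injury (log2 ratio of at least 2 with 1 CPM added), against 11.8% of all genes tested, and none was lower, against 7.96%. The rule that chose the members used this contrast, so nothing is read from the count. Prg4 was 15.1-fold (8.80 to 28.4), Penk 13.6-fold (6.86 to 31.5), Slc47a1 10.1-fold (5.76 to 19.6), Bnc2 8.555-fold (5.68 to 13.5), Slc4a10 6.32-fold (4.82 to 8.45) and Kcnb2 5.95-fold (4.20 to 8.73) higher. Eya1, with its single naïve count, had a ratio of 30.4 (5.41 to 1205). Crym passed only through its 0 in naïve cells, and Foxp2, at 3.82-fold (2.83 to 5.28), stayed under the threshold.

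After ischemic injury 4 of the 9 members were at least 4-fold above naïve, against 8.25% of all genes higher and 12.6% lower, with no member lower. They were Prg4 (14.2-fold, 8.25 to 26.75), Eya1 (ratio 18.1, 3.16 to 724.5), Penk (7.38-fold, 3.69 to 17.3) and Slc47a1 (5.30-fold, 2.98 to 10.4). Slc4a10 and Bnc2 were 3.63-fold and 3.53-fold higher, Kcnb2 2.64-fold and Foxp2 1.74-fold. The median log2 ratio over all genes tested was -0.11 for physical and -0.38 for ischemic injury, against medians of 3.29 and 2.38 over the 9 members. The value of 3.29 is that of Crym, which rests on its 0 naïve counts and the 1 CPM added. After ischemic injury Crym had 9 counts, under the 10 needed for a call, but it is in the median. The numbers of all genes past the threshold, 1379 higher and 934 lower after physical and 824 and 1263 after ischemic injury, became 1664 and 685, and 1346 and 783, with TMM scaling, which rescales the totals to the bulk of the genes. The 4 members above naïve after ischemic injury became 7 with this scaling.

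The naïve levels rested largely on 1 cell. This cell, with 10975 UMIs against the cluster's median of 1724, held UMIs of 7 members and 147 of the 186 member counts of naïve cluster 4 (79.0%). It carried 48 of the 53 Slc4a10 counts, 35 of the 44 Foxp2 counts, 28 of the 32 Kcnb2 counts and 22 of the 23 Bnc2 counts, but none of the 13 Prg4 counts. No other naïve cell of the cluster held more than 2 members. Without it the summed member level of naïve cluster 4 was 139 CPM (98.9 to 190) instead of 638.5 CPM (550 to 737), and 8 members instead of 4 were at least 4-fold higher after ischemic injury. The injured sums were 4631 CPM (4550 to 4712) and 2615 CPM (2528 to 2704).

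Cells of cluster 4 fell apart by how many members they carried. After physical injury 126 of 349 cells held none and 66 held 7. Cells with UMIs of at least 3 members, called member-rich here, made up 154 of 349 physical injury cells (44.1%, 38.8 to 49.5), 39 of 143 ischemic injury cells (27.3%, 20.2 to 35.3) and 1 of 157 naïve cells (0.637%). Thinned to 1000 UMIs, the shares were 35.3%, 11.4% and 0.658%. In the whole libraries member-rich cells were 4.24% (3.62 to 4.93), 1.95% (1.40 to 2.65) and 0.146% of the sorted cells.

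**Figure D2:**
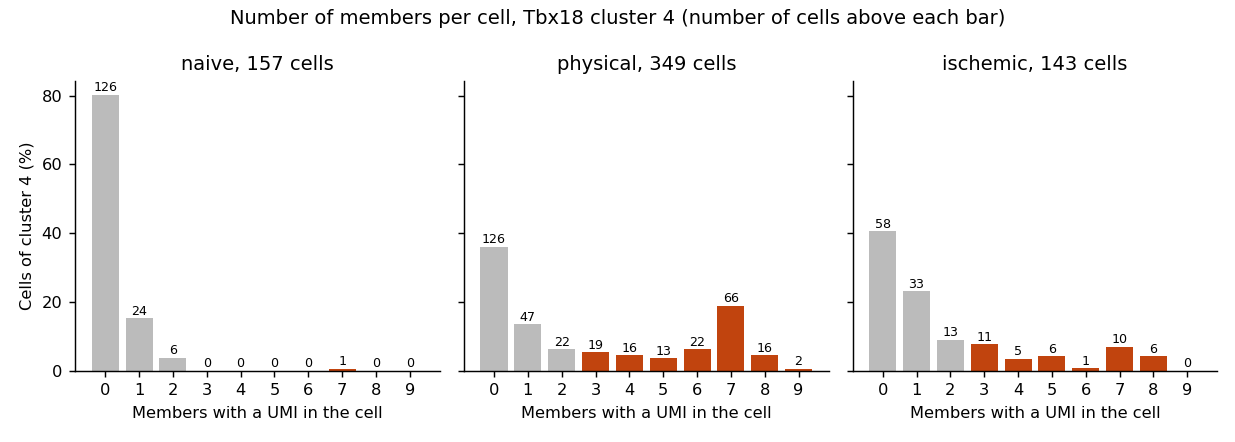
Share of Tbx18 cluster 4 cells (y axis, %) by the number of the 9 members with a UMI in the cell (x axis), 1 panel per library, with the number of cells above each bar and member-rich cells in orange. After physical injury the bars have one peak at 0 members (126 cells) and another at 7 members (66 cells), while in the naïve library 126 of 157 cells held none and 1 cell held 7.

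Of the 203 member-rich cells in the injured Tbx18 libraries, 193 (95.1%) were in cluster 4, 5 in cluster 5 and 5 in clusters 0 to 3. Most cells with Eya1 also held Slc4a10, Bnc2, Foxp2, Kcnb2 and Slc47a1, the last of which is not among the long genes. The choice of members drew on their joint presence in this cluster, so the shares below are a description. After physical injury, Slc4a10 was seen in 97.6% (91.5 to 99.7) of the 82 cells with Eya1 and in 27.0% (21.7 to 32.7) of the 267 cells without it. After thinning to 1000 UMIs the shares were 96.6% and 29.6%. Bnc2, Foxp2 and Slc47a1 were each seen in 96.3% (89.7 to 99.2) of the Eya1 cells, and Kcnb2 in 97.6%. Eya1 was in turn seen in 52.6% of the 152 Slc4a10 cells and in 1.02% of the others.

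Penk and Crym followed another pattern. Penk was seen in 36.6% (26.2 to 47.9) of Eya1 cells and 28.8% (23.5 to 34.7) of the rest, which overlap, but in 12 of the 16 Crym cells (75.0%, 47.6 to 92.7) against 28.5% (23.7 to 33.7) of cells without Crym. In the ischemic library 5 of 7 Crym cells held Penk (71.4%, 29.0 to 96.3) against 22.1% (15.4 to 29.97), and 16 of 16 Eya1 cells held Bnc2 and Prg4. The commonest combination among member-rich cells was all members except Penk and Crym, in 45 cells after physical (29.2%) and 9 cells after ischemic injury (23.1%). The same set with Penk followed, in 16 and 6 cells. Cells of one library are not replicates, and a share of cells with a UMI depends on depth, so these shares describe each library alone.

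**Figure D3:**
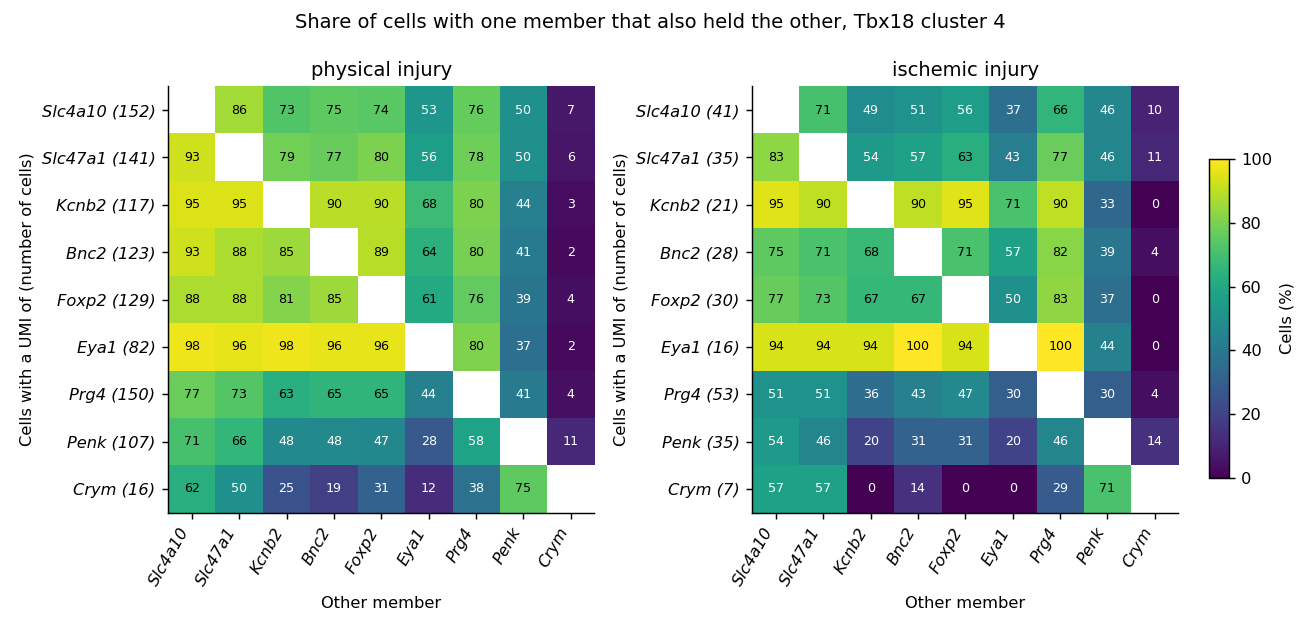
Share of cluster 4 cells with a UMI of the row's member that also held the column's member (%), after physical (left) and ischemic injury (right), with the number of cells with the row's member in brackets. The Eya1 row is near or above 94 for the 5 genes Slc4a10, Slc47a1, Kcnb2, Bnc2 and Foxp2 in both libraries, whereas the Crym row is highest for Penk, at 75 and 71.

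Cluster 5 carried only part of the set. In its physical injury cells Eya1 was at 242 CPM (210.5 to 277) in 55.2% of cells and Foxp2 at 171 CPM (144 to 200.5) in 47.4%. Slc4a10, Slc47a1 and Penk had 0 counts, where 3 counts would be 3.46 CPM. Prg4 was at 4.61 CPM, all 4 counts in 1 cell, Kcnb2 at 2.31 CPM and Crym at 1.15 CPM. Bnc2 was at 57.7 CPM, but 41 of its 50 counts came from 1 cell. In the 10 ischemic injury cells Foxp2 was at 318 CPM (208 to 466), Eya1 at 232 CPM (139.9 to 363) and Bnc2 at 73.4 CPM (26.9 to 159.7). Within cluster 5 after physical injury, Foxp2 was seen in 41 of 64 Eya1 cells (64.1%, 51.1 to 75.7) and 26.9% of the others, so these 2 regulators were shared by fibroblasts while Slc4a10, Slc47a1 and Penk had no count there.

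In cluster 4 after physical injury, 8 of the 9 members were at least 2-fold higher than in cluster 5, against 16.5% of all genes, and Eya1 was lower, against 28.5%. The choice of members used this contrast as well. Slc4a10 was at least 332-fold, Slc47a1 at least 120-fold and Penk at least 108-fold higher (against the level of 3 counts), Kcnb2 had a ratio of 283.5 (78.4 to 2343), Prg4 was 146-fold (56.9 to 536), Bnc2 11.7-fold (8.85 to 15.8) and Foxp2 3.38-fold (2.86 to 4.03) higher, and Crym had a ratio of 7.62 (1.24 to 313). The log2 ratio of Eya1 was -1.21 (-1.48 to -0.95). After ischemic injury 6 members were at least 2-fold higher, against 27.9% of all genes, and Eya1 was lower at -1.88 (-2.64 to -1.10), against 36.4%. TMM scaling turned the split of all genes from 2019 higher and 3493 lower to 2782 and 2050 after physical injury, and from 2566 and 3341 to 3916 and 1595 after ischemic injury, and Eya1 was then past the threshold in neither library.

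Between the injuries, 3 members were at least 2-fold lower in ischemic than in physical injury cells of cluster 4, against 12.6% of all genes lower and 2.21% higher. These were Bnc2 (log2 ratio -1.27, -1.44 to -1.11), Kcnb2 (-1.17, -1.34 to -1.01) and Foxp2 (-1.13, -1.30 to -0.96). No member was higher by as much, and Prg4 was at -0.09 (-0.21 to 0.03). The median over the members was -0.87 and over all genes -0.23. With TMM scaling 1 member was lower, and 503 genes were higher and 1057 lower in place of 264 and 1507.

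The levels of most members in cluster 4 went with Malat1, a long noncoding RNA kept in the nucleus, as did those of many other genes. In cells with a low Malat1 share, as set below, 53.7% of all genes tested were at least 2-fold lower after physical and 47.4% after ischemic injury. Cells in which Malat1 made up under 1% of UMIs were 14.0% of cluster 4 in the naïve library, 65.9% after physical and 86.0% after ischemic injury. In the other clusters of at least 20 cells this share was between 3.54% and 37.4%, except for 57.4% in the 47 cells of ischemic cluster 1. In cluster 4, 19 physical and 4 ischemic injury cells had a Malat1 share between 0.5% and 2%, but 50 of the 157 naïve cells did, so the naïve share depends on where the cut is set. Cells with at least 1% Malat1 numbered 119 after physical injury, with a median of 8171 UMIs, and 111 of them were member-rich (93.3%, 87.2 to 97.1), 105 with at least 5 members. Of the 230 cells under 1%, with a median of 4948 UMIs, 43 were member-rich (18.7%, 13.9 to 24.3). In the ischemic library 19 of 20 (95%, 75.1 to 99.9) and 20 of 123 cells (16.3%, 10.2 to 24.0) were member-rich.

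These classes also differed in RNA content. Ribosomal protein genes made up a median of 4.35% of UMIs in the physical injury cells with at least 1% Malat1 and 26.3% in those below, with 5.31% and 28.4% in the ischemic library. The mitochondrial share was 3.22% and 3.61% after physical, and 3.51% and 4.25% after ischemic injury. Whether the classes differ in RNA integrity was not tested. Naïve cluster 4, with 135 of 157 cells at or above 1% Malat1, had 1 member-rich cell among these 135.

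The shares of 7 members differed widely between these classes. They are at full depth, and after physical injury the classes had medians of 3158 and 1552 genes per cell. After physical injury Bnc2 was seen in 93.3% (87.2 to 97.1) of cells with at least 1% Malat1 and in 5.22% (2.73 to 8.94) of those below. The corresponding shares were 89.1% and 4.78% for Kcnb2, 90.8% and 9.13% for Foxp2, 66.4% and 1.30% for Eya1, 90.8% and 19.1% for Slc4a10, 88.2% and 15.7% for Slc47a1, and 76.5% and 25.7% for Prg4. Penk, the shortest of the genes, was seen in 36.1% (27.5 to 45.4) and 27.8% (22.1 to 34.1), and Crym in 1.68% (0.204 to 5.94) and 6.09% (3.37 to 10.0), with overlapping intervals. In CPM, 7 members were at least 2-fold lower under 1% Malat1, against 53.7% of all genes lower, and Crym was higher, against 13.4%. In the ischemic library 8 members were lower, against 47.4% of all genes, with 20.4% higher.

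**Figure D4:**
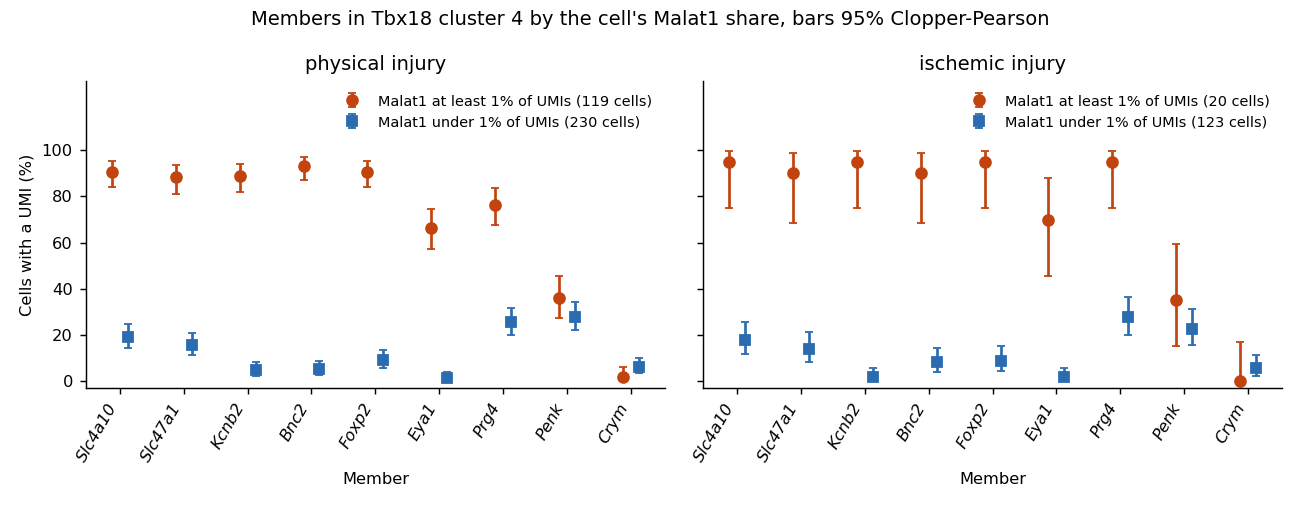
Share of Tbx18 cluster 4 cells with a UMI of each member (%), for cells with Malat1 at or above 1% of UMIs (orange) and under 1% (blue), with 95% Clopper-Pearson bars, after physical (left) and ischemic injury (right). For Slc4a10, Kcnb2, Bnc2 and Foxp2 the orange points lie near or above 89% and the blue ones under 20%, while for Penk and Crym the bars overlap.

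The injuries were also compared within the member-rich cells. These cells were picked by UMIs of the same members, which makes the libraries more alike in them, so nothing is read from the counts of members. Among all member-rich cells of cluster 4, no member differed by 2-fold between ischemic and physical injury, against 10.5% of genes lower and 4.49% higher. Among member-rich cells with at least 1% Malat1 (111 and 19 cells) again none did, against 10.2% and 5.2%. There Slc4a10 was at 3173 CPM after physical and 3195 CPM after ischemic injury (log2 ratio 0.01, -0.11 to 0.13), Slc47a1 at 1090 and 1023 CPM (-0.09, -0.30 to 0.11) and Eya1 at 296 and 334 CPM (0.17, -0.21 to 0.54). Bnc2, at 1922 and 1405 CPM (-0.45, -0.63 to -0.28), Foxp2, at 1628 and 1306 CPM (-0.32, -0.50 to -0.14), and Kcnb2, at 1863 and 1567 CPM (-0.25, -0.42 to -0.09), had intervals below 0. Prg4 was the one member with an interval above 0, at 1626 and 2608 CPM (0.68, 0.54 to 0.82), where the whole cluster gave -0.09. The member-rich cells under 1% Malat1 (43 and 20 cells) differed more. There Bnc2 was at 41.2 CPM after physical injury (9 counts in 9 cells) and 198 CPM after ischemic injury (29 counts in 6 cells). Foxp2 was at 64.05 CPM (14 counts in 11 cells) and 218 CPM (32 counts in 7 cells), and Penk at 2439 and 934 CPM. Bnc2 and Foxp2 were thus in the opposite order to the whole cluster, but on few counts and cells.

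Within cells of at least 1% Malat1 the difference in Eya1 between clusters 4 and 5 was under 2-fold, with log2 ratios of 0.050 and 0.41 after physical and ischemic injury. After physical injury Eya1 was at 261 CPM (232 to 294) in these cells of cluster 4 and 252 CPM (219 to 289) in those of cluster 5. Foxp2 was at 1437 CPM (1366 to 1510) and 178 CPM (150.3 to 209).

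The member-rich cells were then described by gene lists for barrier, meningeal and other brain cell types, as the sum over 158 physical injury member-rich cells against the 307 other cells of clusters 4 and 5. Over all genes, 9.07% were at least 4-fold higher and 6.21% lower, and the median log2 ratio was 0.37. In the ischemic library, with 40 against 113 cells, it was 19% and 3.79%, with a median of 0.68. The cells were sorted by members that were chosen for cluster 4, so these counts are a description. Cluster 5 held 116 cells after physical and 10 after ischemic injury, so the other cells are a different mix in each library. Differences between the injuries in these lists may follow that mix, which was not tested.

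Of 11 arachnoid barrier genes, 8 were higher and 0 lower in both libraries, with a median log2 ratio of 2.55 and 3.10. Cldn11, a tight junction claudin, was at 407 CPM in member-rich and 9.26 CPM in the other physical injury cells, and at 518 and 59.4 CPM in the ischemic library. Cdh1 (E-cadherin), an epithelial adhesion protein, was at 200.5 and 0.421 CPM, Klf5, an epithelial transcription factor, at 373 and 7.99 CPM, and Alcam, an adhesion molecule, at 1553 and 264 CPM after physical injury. The gap junction genes Gjb2 and Gjb6 were at 310 and 497 CPM against 65.2 and 83.7 CPM, and the efflux pump Abcc4 at 179 against 10.9 CPM. The keratin genes Krt8 and Krt18, which epithelial barrier cells may carry, had 0 counts in the member-rich cells. Against cluster 5 with both sides at or above 1% Malat1, 4 of the 11 barrier genes were higher in each library, fewer than above. The median log2 ratio was 1.28 after physical and 1.03 after ischemic injury. Of all genes, 7.59% were higher and 6.84% lower after physical, and 13.2% and 6.28% after ischemic injury. This comparison, here and below, set 111 against 98 physical injury cells and 19 against only 8 ischemic injury cells.

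Of 14 meningeal transcription factors, 3 were higher after physical and 7 after ischemic injury, and none lower. Foxc2 (202 against 11.4 CPM) and Six2 (54.8 against 5.89 CPM) were among those higher in both libraries. Foxc1, Zic1 and Zic2 were at 211, 227.5 and 178 CPM in member-rich and 189, 221 and 121 CPM in the other physical injury cells. Against cluster 5 at or above 1% Malat1, 4 were higher and 2 lower after physical injury, with a median of -0.08. After ischemic injury 3 were higher and 1 lower in that comparison, with a median of -0.43.

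The solute carriers split. Of 15 carriers of the meninges, 6 were higher in both libraries and 7 lower after physical and 3 after ischemic injury. The amino acid carrier Slc38a2 was at 3796 against 74.5 CPM after physical injury, the vitamin C carrier Slc23a2 at 1141 against 39.1 CPM, the sulfate carrier Slc26a2 at 821 against 10.5 CPM and the bicarbonate carrier Slc4a4 at 647 against 34.5 CPM. Slc26a7, an anion exchanger, and Slc16a11, of the monocarboxylate carrier family, were the other 2. Lower were the GABA carrier Slc6a13 (42.5 against 717 CPM), the cystine carrier Slc7a11 (73.6 against 651 CPM), Slc6a20a (28.6 against 302 CPM) and the organic anion carriers Slc22a6 (16.4 against 183 CPM) and Slc22a8 (20.5 against 179 CPM), among others.

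Fibroblast genes were mostly lower. Of 12, 1 was higher and 7 lower after physical injury, with Apod at 1341 against 9243 CPM and Cemip at 45.8 against 465 CPM, while the collagen genes Col1a1, at 697 and 533 CPM, and Col1a2, at 695 and 656 CPM, were within 2-fold. The 1 higher was Ogn (osteoglycin), at 615 against 117 CPM. Against cluster 5 at or above 1% Malat1, 0 of the 12 were higher and 8 lower in each library, with median log2 ratios of -5.77 and -5.92 and a summed level of 3264 against 37900 CPM after physical injury. Of 6 dural fibroblast genes, 3 were higher after physical injury (Mgp, 8105 against 612 CPM, Fxyd5, 1455 against 215.5 CPM, and Crabp2, 348.5 against 33.2 CPM) and 2 after ischemic injury, while Dpt was at 1.64 and Thbs4 at 0 CPM.

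Markers of other cells that the sort could hold were counted in the same way. Of 8 pericyte genes 0 were higher and 4 lower after physical injury, and their summed level was 108 CPM against 1366 CPM in the other cells and 41.0 CPM against 322 CPM in the ischemic library. The other cells include cluster 5, named fibroblasts by the study, where Vtn was at 3085 CPM after physical and 3290 CPM after ischemic injury. A higher sum in the other cells therefore need not mean pericytes among them. In the ischemic member-rich cells 5 of the 8, Vtn and Abcc9 among them, had 0 counts. Of 6 smooth muscle genes 5 were lower after physical and 0 after ischemic injury, with summed levels of 587 against 5355 CPM and 2212 against 6653 CPM. Of 5 endothelial genes 4 and 3 were lower (186 against 317 CPM and 182 against 256 CPM), and of 6 myeloid genes 5 and 5 (416 against 1548 CPM and 249 against 2454 CPM). None of these 3 lists held a gene higher than in the other cells of clusters 4 and 5. Against cluster 5 at or above 1% Malat1, however, Cd74, an antigen presentation gene, was higher in each library (352 against 6.40 CPM and 278 against 29.05 CPM), and the myeloid genes summed to 379 against 102 CPM and 278 against 43.6 CPM. The 5 neuron genes summed to 0.818 and 10.3 CPM, the 5 oligodendrocyte genes to 5.73 and 5.13 CPM and the 5 oligodendrocyte precursor genes to 16.4 and 38.45 CPM in the physical and ischemic member-rich cells. Of the 5 astrocyte genes Gja1, a gap junction gene that meningeal cells also carry, was higher (1289 against 119.5 CPM), and Aqp4 had 0 counts. No choroid plexus, ependymal or Schwann cell gene was 4-fold higher after physical injury, with Ttr at 7.36 against 539.5 CPM and Rarres2 at 22.9 against 177 CPM, and the Schwann cell gene Pmp22, at 423 against 125 CPM after physical injury, was higher after ischemic injury (299.9 against 50.3 CPM). The part of any of these cells in the results was not tested.

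The families of the members were looked at last. Among the relatives and partners of Eya1, its relative Eya2 (596 against 77.4 CPM) and Six2 were higher in both libraries, and Six4 was higher after physical injury. Both detected FOXP relatives were higher in both libraries, Foxp1 at 2050 against 213 CPM and Foxp4 at 98.2 against 16.8 CPM after physical injury. Against cluster 5 with both sides at or above 1% Malat1, only 1 FOXP relative was higher after physical and 0 after ischemic injury. Their summed levels there were 2617 against 562 CPM and 1876 against 799 CPM. In that comparison 2 of the Eya1 relatives and partners were higher in each library, and 1 was lower after physical injury. Of the MATE and SLC4 carriers, 3 were higher after physical injury, Slc47a2 (47.5 against 1.26 CPM), Slc4a4 and Slc4a8. The opioid receptor genes Oprm1 and Oprd1 had 0 counts in the member-rich cells and in the other cells of both injured libraries.

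Among all genes but the members, the 15 with the highest ratio of member-rich to other cells, taking the lower of both injured libraries, were Col25a1, Adamtsl3, Gm6260, Tmem117, Slc26a7, Rtl4, Agtr1b, Ccn3, Cdh1, Etl4, Thsd4, Slc38a2, Ablim3, Slc26a2 and Mdga2, of which Slc26a7, Cdh1, Slc38a2 and Slc26a2 are also on the lists above. Col25a1, a transmembrane collagen, was at 1820 against 1.68 CPM after physical and 1305 against 0 CPM after ischemic injury. Ccn3, a secreted matricellular protein, was at 2054 against 31.1 CPM and 1556 against 23.2 CPM, and Agtr1b, an angiotensin receptor, at 76.9 and 74.3 CPM against 0. Over 16 cluster and library sums of at least 20 cells, the genes whose level, as log2(CPM + 1), ran most alike to the summed members were Prdm6 (Pearson's r = 0.96), F3 (0.95), Ptgdr (0.95), Fibin (0.94), Col6a1 (0.93), Itgbl1 (0.93), Smoc1 (0.93), Mpzl2 (0.92), Crabp2 (0.92) and Lbp (0.92). The 16 points share 3 libraries and their depths, so these values are given as a description. Prdm6, a transcriptional repressor, was at 128.1 and 93.7 CPM in physical and ischemic injury cluster 4 and at most 9.22 CPM elsewhere.

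The NG2 line had not been used to choose the members, and there they were split into separate groups. Slc4a10, Foxp2, Eya1 and Kcnb2 were found in its cluster 6, named oligodendrocyte precursors by the study, at 95.4 CPM (85.8 to 106), 51.3 CPM (44.3 to 59.0), 223 CPM (208 to 239) and 152 CPM (140 to 165) after physical injury. In naïve cluster 6 the same genes were at 105.5, 21.1, 163.5 and 343 CPM, and in ischemic injury at 63.0, 29.6, 227 and 136 CPM. Kcnb2 was thus highest in the naïve precursors and Eya1 higher after either injury. Foxp2 and Eya1 were not confined to cluster 6. Over the NG2 libraries 666 Foxp2 counts lay outside it and 323 in it, and 2272 Eya1 counts lay outside it and 1834 in it. The highest Foxp2 level of the line was 87.9 CPM, in naïve cluster 8, named mesenchymal-like pericytes by the study. Prg4, Slc47a1, Penk, Crym and Bnc2 did not exceed 1.03, 0.897, 3.17, 2.90 and 5.46 CPM in any cluster of any NG2 library.

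At full depth 17 of 4306 naïve (0.395%), 101 of 2563 physical injury (3.94%, 3.22 to 4.77) and 133 of 3586 ischemic injury NG2 cells (3.71%, 3.11 to 4.38) held at least 3 members. In the Tbx18 libraries the shares were 4.24% (3.62 to 4.93) after physical and 1.95% (1.40 to 2.65) after ischemic injury, so the intervals of the lines overlapped for physical injury and were separate for ischemic injury. Of the NG2 cells with at least 3 members, 17, 99 and 111 held none of Prg4, Slc47a1, Bnc2, Penk and Crym. These 5 genes were low in every NG2 cluster, so this outcome was fixed beforehand. Of these member-rich NG2 cells 17, 90 and 75 were in cluster 6, and 0, 10 and 52 in cluster 7, named radial glial precursors by the study. NG2 cells with at least 2 of the 5 genes Prg4, Slc47a1, Bnc2, Penk and Crym numbered 0, 0 and 1, against 2, 167 and 45 in the Tbx18 libraries. The 5 genes were grouped by their low NG2 level and chosen for Tbx18 cluster 4, so nothing is read from these counts. Thinned to 1000 UMIs, 1 of 4236, 1 of 2493 and 0 of 3449 NG2 cells (which allows a share of up to 0.0870%) held at least 3 members, against 1 of 629, 120 of 3696 (3.25%) and 16 of 2014 (0.794%) Tbx18 cells. With 1 pool of animals per group, the line and the pool cannot be told apart.

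**Figure D5:**
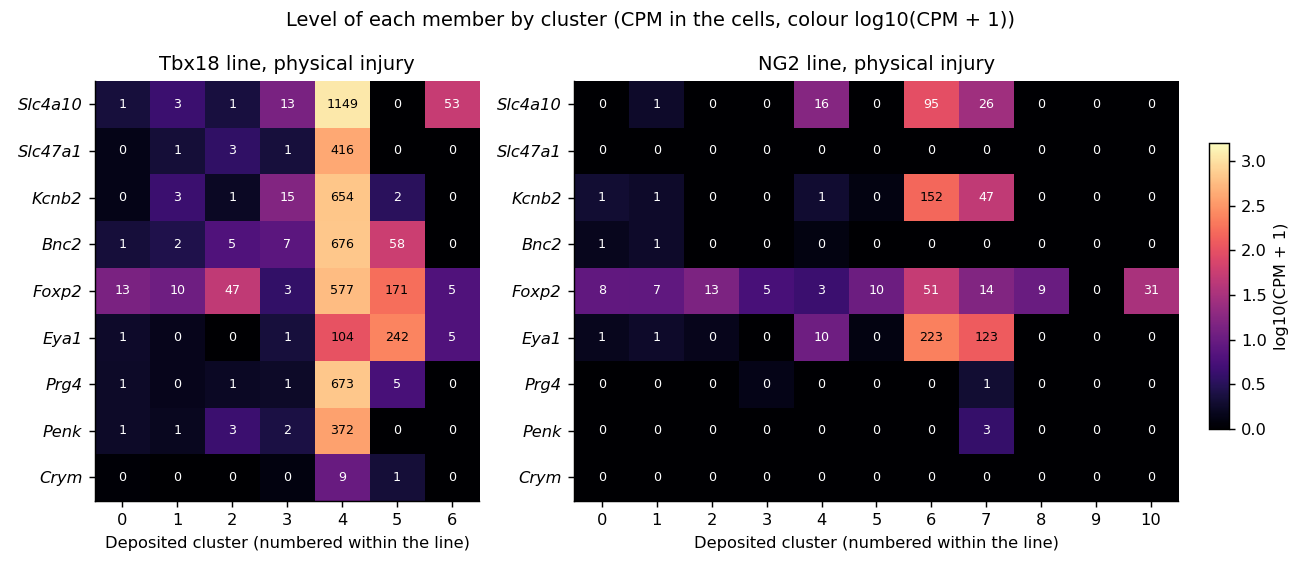
Level of each member (CPM in the cells, colour on a log10(CPM + 1) scale) by deposited cluster after physical injury, in the Tbx18 line (left, clusters 0 to 6) and the NG2 line (right, clusters 0 to 10), with cluster numbers set separately in each line. Tbx18 cluster 4 is bright for 8 members, while NG2 cluster 6 shows Slc4a10 (95), Kcnb2 (152), Foxp2 (51) and Eya1 (223) and 0 for the other 5.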

How the data were processed

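The authors aligned reads of 10x Genomics 3′ libraries with Cell Ranger to mm10 (GRCm38). The labels give version 7.0.0, while the study gives a range of versions up to 7.0.0 without naming the version of each library. Cells were filtered in Seurat on genes detected, UMIs and mitochondrial share, and each line was clustered. What the authors deposited are raw UMI counts, not normalized, beside a cluster number for every cell. The deposited percent of mitochondrial transcripts served only in cell filters. Groups follow the labels. No doublet caller was run, and doublet treatment is not given in the sources used here.

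Within a library, each cluster's counts were added up and divided by the UMIs of those cells. Log2 ratios used a pseudocount of 1 CPM and genes with at least 10 counts over both sides. A call needed 4-fold against naïve cells and in the gene lists, and 2-fold otherwise. Cells were thinned with a fixed seed. Depth sets the shares: a count of 0 allows up to 3 counts.

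The members and gene lists were chosen with earlier results of these data known. Named genes were the members, at most 4 examples of a list by level, more where a count called for them, the 15 with the largest smaller ratio in both injured libraries (at least 50 CPM) and the 10 most alike to the summed members. Examples beyond these were chosen after their values were seen, and so were the cut of 1% Malat1 and the comparisons that rest on it. Some reference sequence was not used here. A few genes of the lists are not reported here. Gene spans are those of GENCODE M21; the release used for alignment is not given in the sources used here. The ratio calculation was tested on simulated data. TMM factors came from edgeR 4.0.16 in R 4.3.3, and all other steps ran in Python 3.11.15 with pandas 2.3.3, scipy 1.17.1, numpy 2.4.6 and matplotlib 3.10.9.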

Additional observations from a re-analysis of the deposited data

How the results depend on the processing

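No paired analysis was possible because each group is 1 pooled library. With 1 library per group, depth and the number of cells limit every value: cluster 5 held 10 ischemic injury cells, and 3 counts there are 36.7 CPM. Alternatives that use the Malat1 cut or leave out the naïve cell were chosen after seeing the data, and the cause of a change was not tested. Of the main values under alternatives, 57 stayed within their range and 32 moved, and of the values of single members and the counts of all genes 219 stayed, 147 moved and 2 reversed. The summed member level of cluster 4 moved from 638.5 to 842.5 CPM in naïve cells with at most 5% mitochondrial UMIs. With TMM scaling (factors 0.999, 0.748 and 0.637 for the 3 libraries), with the methods' filters and without the top 5% of cells by UMIs, it moved from 4631 to 6193, 5550 and 5665 CPM after physical injury and from 2615 to 4104, 3121 and 3054 CPM after ischemic injury. Thinning to 1000 UMIs moved the median share over the members from 35.2% to 22.85% and from 21.0% to 10.0%. The member-rich share of 44.1% after physical injury became 35.3% thinned, 50.4% with at least 2 members, 38.7% with at least 4 and 93.3% at or above 1% Malat1, and that of 27.3% after ischemic injury became 11.4%, 36.4%, 19.6% and 95%. The naïve share was 4.46% with at least 2 members. Members above naïve after ischemic injury went from 4 to 7 with TMM, to 8 at or above 1% Malat1 and to 8 without the naïve cell, while the count after physical injury stayed within 1.5 times. Members lower in ischemic than physical injury went from 3 to 1 with TMM and to 0 at or above 1% Malat1. The 1 member lower in cluster 4 than in cluster 5, Eya1, was lost in both libraries with TMM (0) and at or above 1% Malat1 (0), where its log2 ratio reversed to 0.050 and 0.41. The median co-detection share over member pairs moved from 67.4% to 45% thinned and 95.95% at or above 1% Malat1 after physical injury, and from 51.1% to 94.7% at or above 1% Malat1 after ischemic injury. With the methods' filters, the summed level in the NG2 line moved from 34.5 to 26.9 CPM in naïve and from 89.1 to 77.1 CPM in ischemic injury cells. Counts of all genes moved by over 1.5 times with a pseudocount of 5 CPM to 474 higher after physical and 447 after ischemic injury against naïve, and to 87 higher and 632 lower between the injuries. Without a count filter 1756 genes were lower after physical injury, 1481 higher and 2757 lower after ischemic injury, 539 higher and 2325 lower between the injuries, and 5115 higher and 5069 lower in ischemic cluster 4 against 5. At or above 1% Malat1 there were 595 and 647 genes lower than naïve, 575 higher between the injuries, 1591 lower in physical cluster 4 against 5, and 1468 higher and 1214 lower in ischemic cluster 4 against 5.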

Other observations

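The 43 member-rich physical injury cells of cluster 4 with under 1% Malat1 carried another mix of members than the 111 with at least 1%. Penk was at 2439 CPM in them and at 390 CPM in the others, and Crym at 54.9 and 4.20 CPM, while Bnc2 was at 41.2 and 1922 CPM, Kcnb2 at 36.6 and 1863 CPM and Slc4a10 at 457.5 and 3173 CPM. Cldn11 was at 229 and 468 CPM. In the ischemic library, with 20 and 19 such cells, Penk was at 934 and 364 CPM, Crym at 40.9 and 0 CPM and Bnc2 at 198 and 1405 CPM, which is the same order for each gene. Both groups were picked by UMIs of the same members, so their mix is a description. Over all cluster 4 cells of each class, Penk was at 390 CPM under 1% Malat1 and 345 CPM in the others after physical injury. After ischemic injury it was in the other order, at 169 and 350 CPM. The 43 physical injury cells had a median of 3938 UMIs with 8.41% mitochondrial and 16.4% ribosomal protein UMIs, against 8162 UMIs, 3.33% and 4.27% in the 111 others. The part of the choice of cells, depth and RNA quality in this difference was not tested.

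The 187 physical injury cells of cluster 4 with under 1% Malat1 that were not member-rich had a median of 29.2% ribosomal protein UMIs, with Prg4 at 71.9 CPM, Penk at 78.1 CPM and each of the other members at or below 10.5 CPM. The 8 cells with at least 1% Malat1 that were not member-rich had a median of 17170 UMIs and no count of 7 of the members.

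The 1 naïve cell with 7 members had 5.90% Malat1, and in the table of both naïve libraries it was placed in cluster 11. The 5 member-rich cells of the physical injury library outside clusters 4 and 5 were in clusters 0, 1, 1, 2 and 3 and had between 9126 and 17060 UMIs. Those in clusters 0 and 2 and one in cluster 1 held 3 members, the other in cluster 1 held 8 and that in cluster 3 held 6. Doublets were not tested in these cells.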
